A study of Mus musculus with 21 samples.

Results

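Cortical layer identity genes are genes whose mRNA marks excitatory neurons of particular layers of the neocortex. Here 9 of them were taken from the count table by their symbols, out of 48474 rows: Cux2, Rorb and Lamp5 for the upper layers, Fezf2, Bcl11b and Etv1 for layer 5, and Tbr1, Foxp2 and Rprm for layer 6. Bulk RNAseq counts from neocortex were available for 10 rNLS8 mice and 11 monogenic littermates, labelled wild-type and called controls here. rNLS8 mice carry a tTA driver under the neurofilament heavy chain promoter and a tetO-controlled human TDP-43ΔNLS transgene, so that a TDP-43 without its nuclear localization signal is made mainly in neurons. All mice of both genotypes were 17 to 19 weeks old when 350 µg of a non-targeting antisense oligonucleotide (ASO), in a volume of 10 µL, was injected into the ventricular system of the brain. They stayed on doxycycline diet (200 mg/kg), which keeps the transgene off, until 2 weeks after the injection and were sacrificed after 3 weeks without it. There were 2 independent cohorts (given as batch in the sample labels), A with 3 rNLS8 and 4 control mice and B with 7 rNLS8 and 7 control mice, and which single transgene a control carried is not given in the sources used here. Mice are numbered within each genotype in the order of their sample records.

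The neocortex is built of layers of excitatory neurons that send their axons to different targets. Neurons of the upper layers connect cortical areas with each other, layer 5 holds the neurons that project to brainstem and spinal cord, and layer 6 holds those that project to the thalamus. Most of the 9 genes encode transcription factors that specify these classes during development: Fezf2 and Bcl11b (CTIP2) specify subcerebral projection neurons, Tbr1 specifies corticothalamic neurons, and Cux2 and Rorb mark upper-layer neurons and the layer 4 neurons that receive thalamic input. Etv1 and Foxp2 are further transcription factors, of layer 5 and layer 6. Lamp5 encodes a membrane glycoprotein of the LAMP family and is also a marker of a class of interneurons, and Rprm encodes reprimo, a target of p53 that halts the cell cycle. Bcl11b and Foxp2 are also expressed in projection neurons of the striatum.

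Lamp5 and Rprm, the genes that separated the genotypes completely, lie on mouse chromosome 2, as does Tbr1, which did not separate them. Their promoters (300 bases around an annotated transcription start, most of them upstream of that start) are shown because their mRNA levels were the farthest apart between genotypes. They come from RefSeq for GRCm38.p6, the genome build to which the authors aligned, and capitals mark a GC box. Lamp5 lies at chr2:136052025-136069917 on the plus strand, and the first of its 2 listed promoters spans chr2:136052089-136052388, around a start that lies downstream of the first base of the gene, so that the window is within the gene span. Rprm has a single exon at chr2:54084093-54085552 on the minus strand, and its promoter spans chr2:54085503-54085802. Both sequences are written 5′ to 3′ along the strand of the gene.
Lamp5 promoter: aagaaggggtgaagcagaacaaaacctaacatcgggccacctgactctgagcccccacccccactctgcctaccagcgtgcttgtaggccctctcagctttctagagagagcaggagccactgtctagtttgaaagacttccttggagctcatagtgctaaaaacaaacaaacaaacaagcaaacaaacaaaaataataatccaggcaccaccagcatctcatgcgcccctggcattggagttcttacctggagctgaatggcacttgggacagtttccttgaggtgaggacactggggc
Rprm promoter: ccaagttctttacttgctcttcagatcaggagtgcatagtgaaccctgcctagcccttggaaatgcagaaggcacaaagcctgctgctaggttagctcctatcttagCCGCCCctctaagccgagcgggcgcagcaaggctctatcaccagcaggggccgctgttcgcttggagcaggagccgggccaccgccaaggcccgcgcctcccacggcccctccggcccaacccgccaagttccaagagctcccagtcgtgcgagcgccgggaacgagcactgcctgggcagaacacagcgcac
The Rprm promoter was 63.3% G and C and held 1 GC box (GGGCGG, read on either strand, here on the opposite strand). The Lamp5 promoter was 50.7% G and C and held none of the motifs searched, which were the TATA box (TATAAA), the GC box and the cyclic AMP response element (TGACGTCA), each on both strands. Among 32544 mouse promoters of the same length, 35.9% held a GC box, 13.6% a TATA box and 1.80% a cyclic AMP response element. A match to these letters is a description of the window and not a binding site.

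Depth was similar between libraries, with 20700912 to 22263809 counted reads per mouse (median 21451125 in rNLS8 and 21076278 in control mice). A limit of 3 counts corresponded to at most 0.145 CPM (counts scaled to the size of the library) in any mouse, and all 9 layer genes lay far above it. Genotype affected much of the transcriptome: of 18248 genes tested, 8154 (44.7%) passed an adjusted p of 0.05 in edgeR's quasi-likelihood test with cohort in the model, of which 4190 (23.0%) were higher and 3964 (21.7%) lower in rNLS8 mice. The median log2 fold change over all genes tested was 0.00. Tardbp, the endogenous TDP-43 gene and a check of the labels, was higher in rNLS8 mice (log2 fold change 0.62, SE 0.07, adjusted p = 1.5e-07), with 2363 to 5053 normalized counts against 2253 to 2827 in control mice. These ranges overlapped, and reads from the human transgene could not be told apart from those of the mouse gene. The labels name the tissue as neocortex and the methods name brain cortex, whereas one figure legend of the study names hippocampus for rNLS8 mice. Markers of excitatory neurons shared by both regions had a summed level of 3917 to 6275 CPM in rNLS8 and 5518 to 8455 CPM in control mice and do not distinguish them. The hippocampal list, with Wfs1 as its most abundant gene, summed to 81.9 to 116 CPM in rNLS8 and 133 to 225 CPM in control mice, and its genes Prox1 and C1ql2, markers of the dentate gyrus chosen after their values were seen, averaged 377 and 74.6 counts per mouse. These levels do not by themselves settle the tissue, which is called neocortex here after the labels.

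All 9 layer genes passed the filter on low counts. In rNLS8 mice 5 of them fell (Lamp5, Rprm, Etv1, Bcl11b and Foxp2), none rose, and 4 did not pass the test (Cux2, Rorb, Tbr1 and Fezf2). Over all genes tested, the share that fell was 21.7%, and the share called in either direction was 44.7%. Each layer had both kinds of gene: Lamp5 fell but not Cux2 or Rorb in the upper layers, Bcl11b and Etv1 but not Fezf2 in layer 5, and Rprm and Foxp2 but not Tbr1 in layer 6. The median log2 fold change of the 9 genes was -0.39. Since this is bulk tissue, fewer cells of a type and less RNA per cell cannot be told apart.

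**Figure D1:**
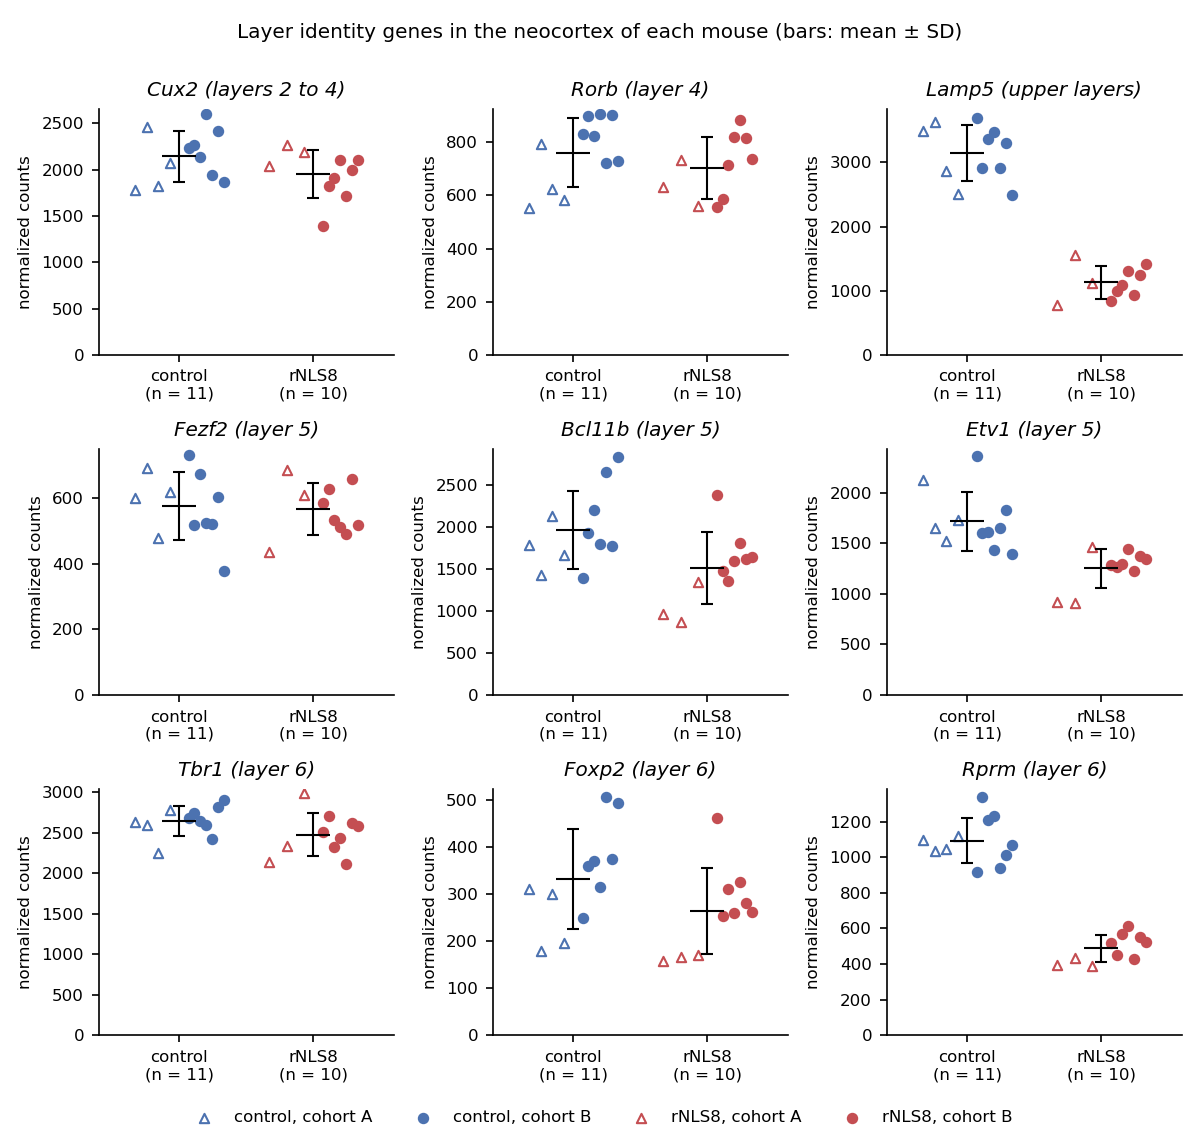
Normalized counts of the 9 layer genes (y axis, from 0) in each mouse by genotype (x axis). Open triangles are mice of cohort A and filled circles mice of cohort B, with horizontal and vertical bars for the mean and SD of each genotype. The rNLS8 mice lie below every control mouse for Lamp5 and Rprm and overlap the control mice for the other 7 genes.

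Lamp5 showed the largest fall of the 9. In control mice it ranged from 2484 to 3688 normalized counts with a median of 3294, and in rNLS8 mice from 773 to 1560 with a median of 1105. All 10 rNLS8 mice were below every control mouse, a separation that 7.65% of all genes tested showed (3.80% with rNLS8 mice lower, 3.85% with rNLS8 mice higher). The fitted level fell by 64.1%, with a log2 fold change of -1.48 (95% confidence interval -1.71 to -1.25, adjusted p = 1.3e-10). Ordered by log2 fold change from the lowest, Lamp5 was number 15 of the 18248 genes tested. Lamp5 is also expressed by interneurons, and of 10 interneuron genes 7 fell and none rose, beside 21.7% and 23.0% of all genes, with log2 fold changes from -0.45 (Gad1, a GABA-synthesizing enzyme) to 0.08. Ndnf, which marks neurogliaform interneurons and was chosen after its value was seen, had a log2 fold change of -0.23 (adjusted p = 0.11). Adarb2, a gene of the same list, fell (-0.30, adjusted p = 0.0079). The part of interneurons in the fall of Lamp5 was not tested.

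Rprm showed the same separation. Control mice had 916 to 1337 normalized counts (median 1070) and rNLS8 mice 389 to 611 (median 485). Again all 10 rNLS8 mice were below every control mouse. The fitted level fell by 55.9%, with a log2 fold change of -1.18 (interval -1.34 to -1.03, adjusted p = 1.2e-11), number 46 from the lowest. Together, Lamp5 and Rprm were the 2 layer genes with no overlap between genotypes.

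The other 3 genes that fell overlapped between genotypes. Etv1 had 1392 to 2362 normalized counts in control mice (median 1648) and 914 to 1465 in rNLS8 mice (median 1291). All 10 rNLS8 mice were below the control mean of their own cohort and 8 were below every control mouse, with a log2 fold change of -0.47 (interval -0.66 to -0.27, adjusted p = 0.00028). Bcl11b had 1392 to 2837 normalized counts in control mice (median 1801) and 877 to 2388 in rNLS8 mice (median 1539). Here 9 of 10 rNLS8 mice were below the control mean of their cohort, but only 4 were below every control mouse, and the log2 fold change was -0.43 (interval -0.69 to -0.18, adjusted p = 0.0063). Foxp2 was the least abundant of the 9, with 179 to 507 normalized counts in control mice (median 316) and 158 to 462 in rNLS8 mice (median 261). Its log2 fold change was -0.39 (interval -0.66 to -0.12, adjusted p = 0.017), with 9 of 10 rNLS8 mice below the control mean of their cohort. The call for Foxp2 depended on the model, since without the cohort term its log2 fold change was -0.33 with an adjusted p of 0.17.

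The 4 remaining genes include regulators of each layer's identity. Tbr1, the regulator of corticothalamic identity, had 2251 to 2899 normalized counts in control mice (median 2647) and 2108 to 2995 in rNLS8 mice (median 2476), and its log2 fold change of -0.10 had an interval from -0.21 to 0.02 (adjusted p = 0.18). Leaving out rNLS8 mouse 10, the highest of all 21, brought Tbr1 to -0.14 and past the threshold (adjusted p = 0.022). Fezf2, the regulator of subcerebral identity, had 378 to 733 normalized counts in control mice (median 602) and 437 to 685 in rNLS8 mice (median 560). Its log2 fold change was -0.02 with an interval from -0.22 to 0.18, and its direction changed with scaling, since normalization by library size only gave 0.05. Cux2 had 1785 to 2595 normalized counts in control mice (median 2141) and 1386 to 2263 in rNLS8 mice (median 2017), with a log2 fold change of -0.14 (interval -0.30 to 0.03, adjusted p = 0.17). Rorb had 551 to 907 in control mice (median 791) and 555 to 884 in rNLS8 mice (median 723), with -0.12 (interval -0.30 to 0.05, adjusted p = 0.24). These intervals leave room for a fall, so the values do not show that the genes were equal between genotypes.

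The order of the mean levels per length differed between genotypes at the top of the list. In CPM per kb of exon, control mice had Lamp5 first (50.3 ± 6.88, SD, n = 11), then Rprm (35.1 ± 4.06) and Tbr1 (22.6 ± 1.56). In rNLS8 mice Tbr1 came first (21.1 ± 2.30, SD, n = 10), then Lamp5 (18.0 ± 4.06) and Rprm (15.6 ± 2.50), but the ranges of Tbr1 and Lamp5 overlapped in these mice (18.0 to 25.6 and 12.3 to 24.9), so that their order there does not exceed the spread between mice. The ranges of Lamp5 and Rprm overlapped in both genotypes, whereas Rprm and Tbr1 did not overlap in control mice. Bcl11b, Cux2 and Fezf2 followed with overlapping ranges, at means of 11.4, 9.96 and 8.87 in control mice and 8.72, 9.07 and 8.71 in rNLS8 mice. Etv1 (6.05 and 4.41 in control and rNLS8 mice) and Rorb (3.21 and 2.97) were lower. Foxp2 was the lowest in both genotypes, at 0.953 ± 0.303 and 0.760 ± 0.262, and no mouse of either genotype reached the range of Rorb.

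To see whether the 2 cohorts showed the same changes, each was tested alone and the interaction of genotype and cohort was tested over all mice. Lamp5 fell in cohort A (log2 fold change -1.41, interval -1.89 to -0.93) and in cohort B (-1.51, interval -1.73 to -1.28). The log2 fold change of Rprm was -1.38 in A and -1.09 in B, and that of Etv1 was -0.65 and -0.37. In cohort A the layer genes past the threshold were Lamp5, Rprm, Etv1 and Bcl11b, all lower, 4 of 9 against 11.8% of all genes called there (4.83% lower, 6.99% higher). In cohort B they were Lamp5, Rprm, Etv1 and Cux2, again all lower, 4 of 9 against 39.1% of all genes (19.8% lower, 19.3% higher). Bcl11b had a log2 fold change of -0.70 in cohort A (adjusted p = 0.023) and -0.30 in cohort B (adjusted p = 0.099), and Foxp2 passed in neither (-0.55, adjusted p = 0.10, and -0.32, adjusted p = 0.11).

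**Figure D2:**
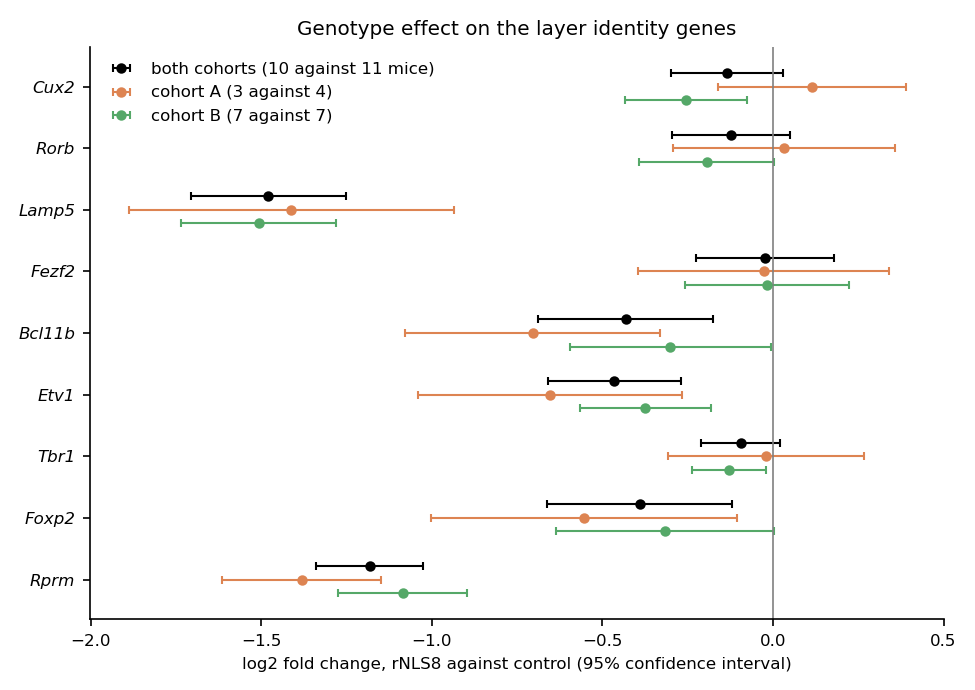
Log2 fold change of rNLS8 against control mice (x axis) for each layer gene (y axis), with 95% confidence intervals from edgeR. Black is the fit over both cohorts, orange cohort A alone and green cohort B alone. The intervals of Lamp5 and Rprm lie below 0 in all 3 fits, and Cux2 has its points on opposite sides of 0 in the cohorts.

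No layer gene passed the test of the interaction, nor did any of the 18248 genes tested with edgeR (0 calls). 1030 genes had an unadjusted p below 0.05, and DESeq2 called 1 gene. Cux2 was 0.34 higher in cohort A than in cohort B in this contrast on the log2 scale (interval 0.01 to 0.66, adjusted p = 0.87), from 0.11 (interval -0.16 to 0.39) in cohort A and -0.25 (interval -0.43 to -0.08, adjusted p = 0.024) in cohort B. Rprm differed by -0.33 (interval -0.64 to -0.02, adjusted p = 0.86).

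Independently of genotype, 3 layer genes were lower in cohort A than in cohort B and none was higher, while 23.3% of all genes tested differed between cohorts (10.8% lower and 12.6% higher in cohort A). Foxp2 differed by -0.75 on the log2 scale (SE 0.14, adjusted p = 0.00075), Bcl11b by -0.44 (SE 0.13, adjusted p = 0.021) and Rorb by -0.30 (SE 0.09, adjusted p = 0.020). The 3 rNLS8 mice of cohort A had 158 to 170 normalized counts of Foxp2, below every other mouse. For Lamp5 the difference between cohorts was 0.01 (interval -0.22 to 0.24).

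Bcl11b, Foxp2 and Cux2 varied between mice together with markers of striatal projection neurons, which lie beneath the neocortex. The summed level of 9 striatal markers (among them Drd1, Drd2, Adora2a, Ppp1r1b and Penk) ranged from 332 to 1977 CPM in control mice (median 838) and from 293 to 1480 CPM in rNLS8 mice (median 730), and each of the 9 had counts in every mouse. Of these 9 markers 4 fell in rNLS8 mice and none rose, a share called like the 44.7% of all genes, for example Penk, the enkephalin precursor (log2 fold change -1.08, adjusted p = 0.0044), and Tac1, the substance P precursor (-0.98, adjusted p = 0.0031). With the genotype and cohort means removed, the summed striatal level went with Foxp2 over 21 mice at Pearson's r = 0.84 (permutation p = 1e-05, the smallest that 100000 permutations can give, adjusted p = 9e-05) and Spearman's rho = 0.72 (p = 0.00042, adjusted p = 0.0019). For Bcl11b r was 0.79 (permutation p = 3e-05, adjusted p = 0.00014) and rho 0.74 (p = 0.00021, adjusted p = 0.0019). Cux2 went the opposite way, with r = -0.74 (permutation p = 0.00013, adjusted p = 0.00039) and rho = -0.67 (p = 0.0012, adjusted p = 0.0035). Without the 2 mice farthest from the median striatal level, r was 0.80 for Foxp2, 0.70 for Bcl11b and -0.63 for Cux2. Within cohorts A and B r was 0.85 and 0.86 for Foxp2, 0.58 and 0.96 for Bcl11b, and -0.75 and -0.74 for Cux2. These relations, 9 in all and adjusted together, were weaker for the other 6 genes, with Rorb next (r = -0.49, adjusted permutation p = 0.052) and values of -0.24 for Lamp5 and 0.18 for Rprm. Some of these differed between cohorts or genotypes: Lamp5 had 0.11 in cohort A and -0.59 in cohort B, and Fezf2 had -0.72 in control and 0.54 in rNLS8 mice. The striatal list was not the only one that Bcl11b, Foxp2 and Cux2 followed. With the same means removed, the summed cortical excitatory markers gave r = 0.82 for Cux2 and -0.71 for both Bcl11b and Foxp2. Interneuron markers gave 0.64 for Bcl11b, 0.68 for Foxp2 and -0.48 for Cux2. The adjustment of the p-values does not cover these other lists.

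**Figure D3:**
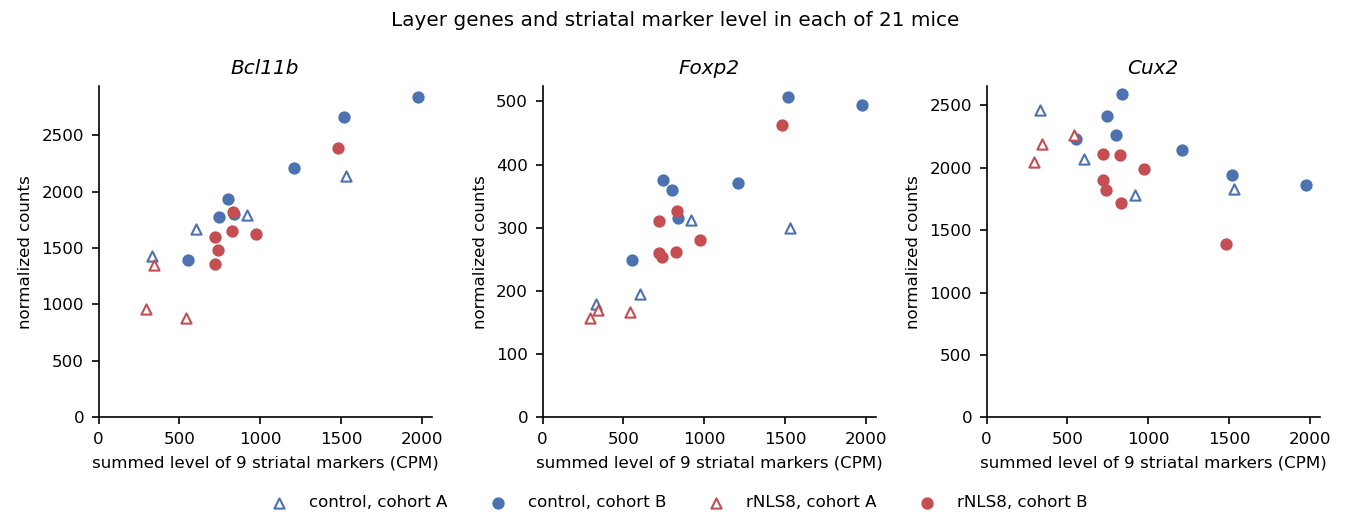
Normalized counts of Bcl11b, Foxp2 and Cux2 (y axes, from 0) against the summed level of 9 striatal markers in CPM (x axes) in each of 21 mice, with genotype by colour and cohort by symbol. Bcl11b and Foxp2 are higher and Cux2 lower in mice with more striatal marker RNA, and 1 rNLS8 mouse of cohort B stands at 1480 CPM.

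With the striatal level added to the model, a choice made after seeing the data, Foxp2 did not pass the test at a log2 fold change of -0.18 (adjusted p = 0.077) and that of Bcl11b was smaller (-0.23, adjusted p = 0.026). Cux2, in contrast, passed it at -0.23 (adjusted p = 0.0039). Lamp5 (-1.52) and Rprm (-1.16) kept their size.

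General neuronal markers also differed between genotypes. Of 8 such genes 5 fell and none rose, beside 21.7% and 23.0% of all genes, including Nefl, the neurofilament light chain (log2 fold change -1.14, adjusted p = 1.7e-14), and Snap25, a synaptic vesicle fusion protein (-0.75, adjusted p = 1.1e-11). Their summed level was 3270 to 4528 CPM in rNLS8 and 4856 to 6310 CPM in control mice, so that this level and genotype cannot be told apart. Rbfox3 (NeuN), chosen after its value was seen, had a log2 fold change of -0.10 (adjusted p = 0.19). In cohort A alone it had 0.08 (adjusted p = 0.76), and in cohort B alone it fell (-0.19, adjusted p = 0.0068). With the neuronal level in the model, Rprm was still past the threshold, and so was Bcl11b at a log2 fold change of -0.91 (adjusted p = 0.049). Lamp5 (-0.50, adjusted p = 0.062), Etv1 (-0.082, adjusted p = 0.85) and Foxp2 (-0.78, adjusted p = 0.12) did not pass.

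Further markers of the same layers were examined to see how far the 9 genes stood for their layers. Over all genes tested 21.7% fell and 23.0% rose. Of 16 further upper-layer genes 10 fell and 3 rose, the latter near the share over all genes, with a median log2 fold change of -0.27. Among those that fell were Rasgrf2, a Ras exchange factor (-0.72, adjusted p = 1.8e-07), Otof, encoding otoferlin (-0.65), and Calb1, the calcium buffer calbindin (-0.57). Among those that rose were Plxnd1, a semaphorin receptor (0.27, adjusted p = 0.00093), and Scnn1a, a sodium channel subunit used as a layer 4 marker (0.29, adjusted p = 0.042).

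Of 14 further layer 5 genes 9 fell and none rose, beside 21.7% and 23.0% of all genes, and the median was -0.39. They included Igfbp4, a binding protein of insulin-like growth factors (-0.82, adjusted p = 9.3e-08), Crym, encoding mu-crystallin (-0.66), and Deptor, an inhibitor of mTOR (-0.53). Of 15 further layer 6 genes 4 fell and 2 rose, with a median of 0.00, so that the share called was near the 44.7% of all genes. Hs3st4, a heparan sulfate sulfotransferase, fell from 1289 ± 104 (SD, n = 11) to 914 ± 88.3 (SD, n = 10) normalized counts without overlap between genotypes (-0.49, adjusted p = 9.1e-08). The transcription factor Nr4a2 (-0.62) and Tle4 (-0.26) fell too. Nxph4, a neurexin ligand (0.48), and Cplx3, a complexin of subplate neurons (0.28), rose. Of 6 pan-cortical excitatory markers 3 fell, namely Nrgn, Camk2a and Neurod6, and Emx1 rose.

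**Figure D4:**
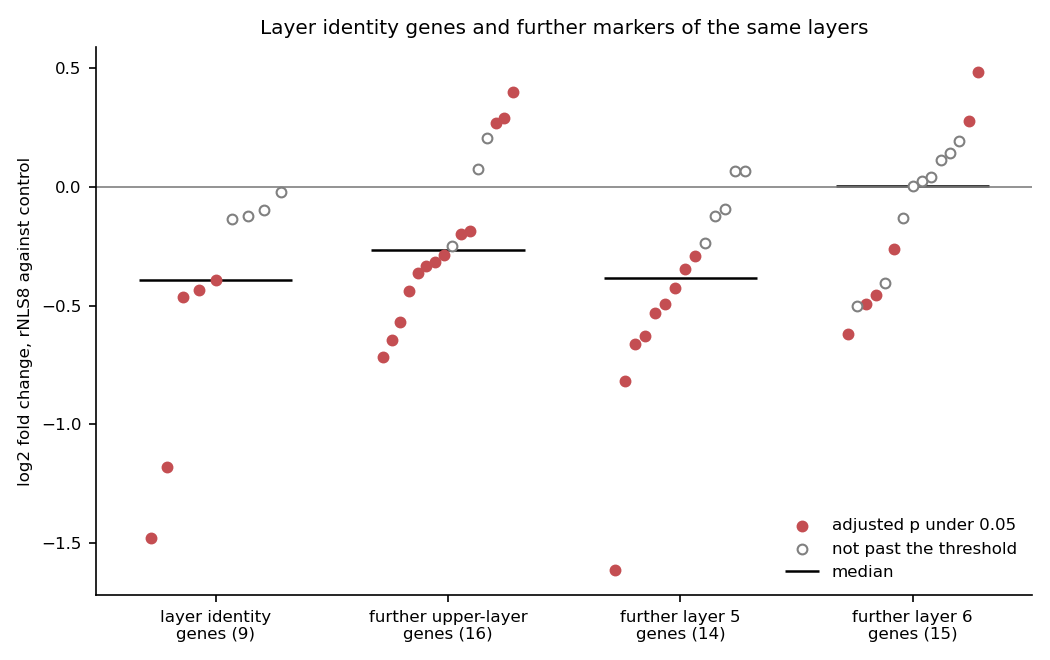
Log2 fold change of rNLS8 against control mice (y axis) for the 9 layer genes and for further genes of the upper layers, layer 5 and layer 6 (x axis), each point a gene and sorted within its list. Filled points passed an adjusted p of 0.05 and horizontal lines are medians. No further layer 5 gene rose, whereas the upper-layer and layer 6 lists hold genes that rose and genes that fell.

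Once genotype and cohort means were removed, the 3 upper-layer genes varied in the same direction, and the genes of layers 5 and 6 did not do so within their layers. The following values describe 21 mice that share 1 normalization. Bcl11b and Foxp2 were the most alike (r = 0.81), although they mark different layers, followed by Cux2 and Rorb (0.72), Cux2 and Lamp5 (0.59) and Lamp5 and Fezf2 (0.56). Rorb and Lamp5, the remaining upper-layer pair, had 0.47. Within layer 5 the values were 0.49 for Fezf2 and Etv1, -0.41 for Fezf2 and Bcl11b and 0.00 for Bcl11b and Etv1, and within layer 6 the pair of Tbr1 and Foxp2 had -0.20. Cux2 was opposed to Foxp2 (-0.79) and Bcl11b (-0.74). Lamp5 and Rprm had r = 0.21, and no other layer gene went with Rprm by more than 0.10 in either direction.

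**Figure D5:**
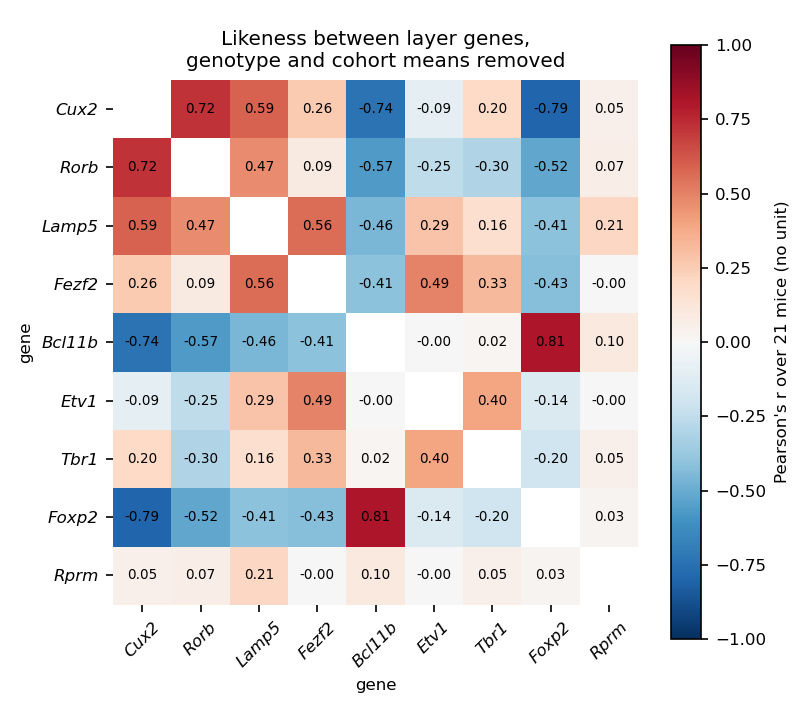
Pearson's r between each pair of layer genes (rows and columns) over 21 mice, computed on log2 CPM after the genotype and cohort means were removed, with red for positive and blue for negative values. Bcl11b and Foxp2 form the reddest pair at 0.81 and Cux2 and Foxp2 the bluest at -0.79.

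Among 14580 genes with a mean of at least 50 counts, those with the pattern most like each layer gene were listed by the same measure over 21 mice. They included Dact2 (r = 0.90) for Lamp5, Tatdn1 (0.71) and Zfp575 (0.70) for Rprm, and Gm5454 (0.89) and Vwc2l (0.86) for Etv1. For Bcl11b they were Mctp1 (0.91) and Strn (0.91), and for Foxp2 Plppr1 (0.93) and Adamts3 (0.89). For the genes that did not pass the genotype test they were Src (0.86) and Pdzrn3 (0.85) for Cux2, Pgam5 (0.85) and Galnt9 (0.84) for Fezf2, Nrsn1 (0.80) and Chrdl1 (0.76) for Rorb, and Klf13 (0.80) and Pcnx2 (0.74) for Tbr1. Dact2 had a log2 fold change of -0.01 between genotypes (adjusted p = 0.94).

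Glial, vascular and other regional markers were read in the same libraries, beside 23.0% of all genes higher and 21.7% lower. Of 6 microglial genes 4 rose, among them Aif1 (log2 fold change 0.47) and Tmem119 (0.18), and P2ry12, a homeostatic receptor, fell (-0.35). Gfap, the intermediate filament of reactive astrocytes, rose (1.03, adjusted p = 5e-08), and the other 5 astrocyte genes fell. None of the 6 oligodendrocyte genes passed the test. Precursor cells had 1 of 3 genes higher (Gpr17, 0.22), and endothelial cells had 1 of 5 lower (Flt1, -0.17). Of 5 thalamic genes Slc17a6 fell (-0.74) and Rora rose (0.29). Of 5 tested genes of the hippocampal list only Wfs1 fell (-0.83), without overlap, and the other 4 did not pass. The part of these differences in the values of the layer genes was not tested except as given here.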

How the data were processed

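Neocortex of 21 mice was analyzed by bulk RNAseq, and genotype and cohort were taken from the sample labels. Per the study's methods, BGI sequenced RNA of RIN above 7, reads were aligned to GRCm38, and DESeq2 was used for differential expression. The submitters' processing notes name HISAT2, Bowtie2 and RSEM with no roles, and the counting rule and strand setting are not given in the sources used here. The authors deposited raw whole-number counts, 1 row per symbol. Of 48474 rows 13329 were empty, and 2536 were further copies of a symbol holding 4.11% of counts, none of a layer gene.

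The counts were tested with edgeR 4.0.16 (R 4.3.3): filterByExpr by genotype (minimum count 10, minimum total 15), TMM normalization, a quasi-likelihood test with genotype and cohort in the model, two-sided, and Benjamini-Hochberg adjustment over all genes tested at 0.05. SEs came from the fold change and the F statistic. Normalized counts are counts scaled to the mean effective library size, and log2 CPM used a prior count of 2. Exon lengths were taken from GENCODE, positions and promoters from RefSeq (GRCm38.p6). Without molecular identifiers, the 3-count limits express counting error alone. No sample was left out.

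The layer genes, lists and tests were chosen with earlier results of these data known. All 9 layer genes are named, with at most 3 genes per list and direction that passed the threshold with the smallest adjusted p and a mean of at least 50 counts, and the 2 genes most alike each layer gene. Some genes that this rule names are not reported here. The alternatives included no cohort term, DESeq2 1.42.0 (both with and without it), other scalings and filters, Xist as covariate, copies left out, each cohort alone and leaving out each mouse. On simulated counts of 18137 genes with 200 changed, edgeR called 196 of them and 11 others. On 18106 genes in cohort A alone it called 166 and 7 others. All changed genes had the same size of change, larger than that of most layer genes, and all genes the same dispersion. These calls therefore do not measure how well changes as small as those of most layer genes are found.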

Additional observations from a re-analysis of the deposited data

Results flagged for a closer look

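The log2 fold change of Cux2 had opposite signs in the cohorts, but in cohort A its interval included 0 (0.11, interval -0.16 to 0.39). All 3 rNLS8 mice of cohort A (2043 to 2263 normalized counts) were above the control mean of that cohort (2035), and all 7 of cohort B (1386 to 2108) were below theirs (2207). The difference between the cohorts was 0.34 on the log2 scale and did not pass the test of the interaction (SE 0.16, adjusted p = 0.87). The summed striatal marker level, to which Cux2 ran opposite over mice (r = -0.74), had a median of 342 CPM in rNLS8 and 761 CPM in control mice of cohort A, and of 824 and 838 CPM in cohort B. With that level in the model, the log2 fold change of Cux2 over both cohorts was -0.23 (adjusted p = 0.0039). Its part in the difference between the cohorts was not tested.

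Foxp2 in rNLS8 mouse 1 of cohort B stood apart from the other 6 rNLS8 mice of that cohort, with 462 normalized counts against 326 in the next, a gap of 0.656 of the range of the group. The same mouse had the highest striatal marker level of the rNLS8 mice (1480 CPM). Without it the log2 fold change of Foxp2 was -0.48. The search covered 36 groups of 4 to 10 mice, in which chance gives about 1.8 such values, and 1 was found.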

How the results depend on the processing

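Rprm stayed past the threshold in all 15 alternative settings and with each mouse left out (-1.22 to -1.15), and Lamp5 in 14 of 15 and with each mouse left out (-1.56 to -1.42). Foxp2 lost its call without the cohort term in edgeR (-0.33) and DESeq2 (-0.33), with library size only (-0.32), and in cohort A (-0.55) and cohort B (-0.32) alone. Fezf2 turned to 0.052 with library size only, and ranged from -0.074 to 0.026 with each mouse left out. Tbr1 ranged from -0.14 to -0.071. In cohort A, Cux2 (0.11) and Rorb (0.033) had the opposite sign. In cohort B, Cux2 passed (-0.25) and Bcl11b did not (-0.30). Calls were 2195 over all genes, 4 in upper layers and 2 in layer 6 in cohort A, and 3 in layer 6 in cohort B, with fewer mice in each. With each mouse left out, 5 to 6 layer genes, 9 layer 5, 11 to 13 upper-layer, 4 to 7 layer 6 and 7805 to 8363 of all genes passed, and the interaction ranged from -0.18 to 0.12 for Fezf2, from -0.22 to 0.28 for Lamp5 and from -0.077 to 0.18 for Tbr1.

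Marker levels as covariates were chosen after seeing the data. The striatal level gave -0.18 for Foxp2 and -0.23 for Cux2. The hippocampal level, mostly Wfs1, did not overlap between genotypes. It gave -0.38 for Cux2, -0.040 for Bcl11b, -0.30 for Etv1 and 0.011 for Foxp2, with 3 layer genes, 5 upper-layer, 3 layer 5, 2 layer 6 and 4228 of all genes called. Bcl11b, Etv1 and Foxp2 lost their calls with the hippocampal level, and Lamp5, Etv1 and Foxp2 with the neuronal level. The neuronal level gave 0.20 for Cux2, -0.50 for Lamp5, 0.54 for Fezf2, -0.082 for Etv1, 0.19 for Tbr1, -0.78 for Foxp2 and, still past the threshold, -0.91 for Bcl11b, with 2 layer genes, 2 upper-layer, 0 layer 5, 2 layer 6 and 4429 of all genes called. For the changes named here the cause was not tested. No paired analysis was possible because the labels give no replicate numbers that genotypes share. Depth did not limit the layer genes, since the lowest value of any of them in any mouse was 158 normalized counts.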
